A study of Mus musculus with 2 samples.

Results

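The 10 genes described here are the antioxidant targets of the transcription factor NRF2 that were followed in this series, together with the iron storage and iron uptake genes: Hmox1, Nqo1, Gclm, Gclc, Txnrd1, Slc7a11, Srxn1, Fth1, Ftl1 and Tfrc. They were chosen by symbol, with earlier results of these data known, from the 32285 genes of 1 single-cell library. All 10 were detected with at least 100 unique molecular identifiers (UMIs, 1 per captured RNA molecule) in the cells analysed. The library pooled 4 cultures of primary vascular smooth muscle cells (VSMCs) from aortas of C57BL/6 mice, which had been marked with 4 barcoded antibodies (hashtags) before mixing. Young cells came from mice of 12 weeks and old cells from mice of 58 to 78 weeks, as commercial isolates used at low passage.

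The 4 groups were young VSMCs, old VSMCs, young VSMCs given angiotensin II (AngII) at 100 nM for 48 h, and old VSMCs transfected with an siRNA pool against the mechanosensitive channel Piezo1 at 20 nM for 48 h. This siRNA concentration is that of the study's methods, and its results section gives a higher one. The labels do not say whether the cells of the other 3 groups received the non-targeting pool, and each hashtag stands for 1 culture. For its Piezo1 protein staining, the study describes the old cells as given non-targeting siRNA. The study's schematic numbers the groups 1 to 4 in the order young, old, young + AngII and old + siPiezo1, and these numbers were read as hashtag numbers, although the schematic does not call them that. Young and old cells were separate isolates whose sex-linked transcripts also differed (below), so age, isolate and sex composition cannot be told apart. Because no group had a second culture, no test between groups was possible. Intervals below are 95% intervals of the counts. They cover counting error only, and leave out the spread between cells and between cultures. The question addressed was how the levels of these genes compared between old and young cells, and with and without AngII or the Piezo1 siRNA.

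NRF2, encoded by Nfe2l2, is held at a low level by KEAP1, which hands it to a ubiquitin ligase; when reactive cysteines of KEAP1 are modified, NRF2 accumulates and activates genes for glutathione synthesis, thioredoxin reduction, quinone reduction, haem breakdown and ferritin through antioxidant response elements. Ferritin, built of heavy (Fth1) and light (Ftl1) chains, stores iron, and the transferrin receptor (Tfrc) brings it in. Iron regulatory proteins bind hairpins called iron responsive elements in these transcripts, which blocks ferritin translation and stabilises Tfrc RNA when iron is scarce. In the vessel wall, haem oxygenase and ferritin are known for handling haem and iron released from blood.

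Of 2472397 barcodes, 13045 passed the limits of 2218 UMIs and 200 genes, and 6670 of these carried a single hashtag. There were 3144 young, 497 old, 1500 young + AngII and 1529 old + siPiezo1 cells, with total counts of 24120561, 5577355, 14933669 and 16106402 UMIs. Cells with no hashtag over its cutoff made up 40.7% of all cells. The median count of a cell's own hashtag was 364, 76, 113 and 67 UMIs in the 4 groups, against cutoffs of 36, 52, 61 and 41. Only young cells thus lay far above their cutoff, and assignment was least secure in the old cultures. All 9 VSMC markers were detected in every group, with summed levels of 1321, 2142, 1490 and 1022 CPM (UMIs of a gene per 1000000 UMIs of the culture). Markers of macrophages (6.15 to 11.7 CPM summed, C1qa at 0 in each group), endothelial cells (3.68 to 8.21, Tie1 at 0), epithelial cells (6.63 to 19.0) and red cells (0.746 to 1.61, Hba-a1 and Hbb-bs at 0) were low, and the 4 fibroblast markers summed to between 758 and 1095. The targeted gene, Piezo1, measured 71.6, 89.7, 108 and 86.9 CPM in the same order. Its ratio was 0.969 (0.874 to 1.08) for cells labelled siPiezo1 over old cells, so its RNA did not check that label. Old over young cells gave 1.505 for Acta2, 2.30 for Tagln and 1.66 for Myl9, and siPiezo1-labelled over old cells gave 0.306, 0.448 and 0.404. The study instead describes its young cells as rich in these markers, and proposes that the siRNA leaves the cytoskeleton of old cells unaltered. These markers thus did not check the group names in those comparisons. AngII-treated over young cells gave 0.777 for Acta2 and 1.68 for Tagln. The study describes the same directions for AngII. Xist stood at 113, 636, 118 and 768 CPM, and a UMI of this female-specific RNA was seen in 14.0% (12.65 to 15.5), 68.5% (64.1 to 72.6), 14.4% (12.6 to 16.4) and 74.6% (72.3 to 76.9) of cells thinned to 5000 UMIs (12.85%, 71.8%, 16.9% and 76.1% unthinned), with 334 CPM of it in free RNA. The median mitochondrial share of UMIs was 1.08%, 1.84%, 0.224% and 1.86%.

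Old VSMCs held higher levels of 4 of the 10 genes than young VSMCs by at least 1.5-fold, namely Hmox1, Txnrd1, Slc7a11 and Ftl1, and of none at a level lower by 1.5-fold. Over all 12533 genes with at least 100 UMIs, 11.7% were higher and 13.5% were lower by that fold. The median ratio of the 10 genes was 1.43, against 1.02 over all genes. AngII-treated young cells were higher than young cells by this fold for 4 genes as well, Hmox1, Nqo1, Txnrd1 and Srxn1, and lower for none, against 8.64% higher and 11.1% lower over all genes. The median ratio there was 1.42, against 1.01 over all genes. Both comparisons used the same young culture, so their values are not independent. Between cells labelled siPiezo1 and old cells, no member passed the fold in either direction, against 5.35% of genes higher and 3.61% lower, and the median ratio was 0.917 against 1.02. The same old culture was the numerator of the age ratios and the denominator of the siPiezo1 ratios. An error in its levels would move the age and siPiezo1 ratios in opposite directions, so these values are not independent either. At a fold of 2, 1 member was higher in old than in young cells and 2 were higher with AngII, against 4.73% and 2.5% of all genes. Because the 10 genes were chosen with earlier results of these data known, these counts and medians cannot show that the set stands out from all genes.

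**Figure D1:**
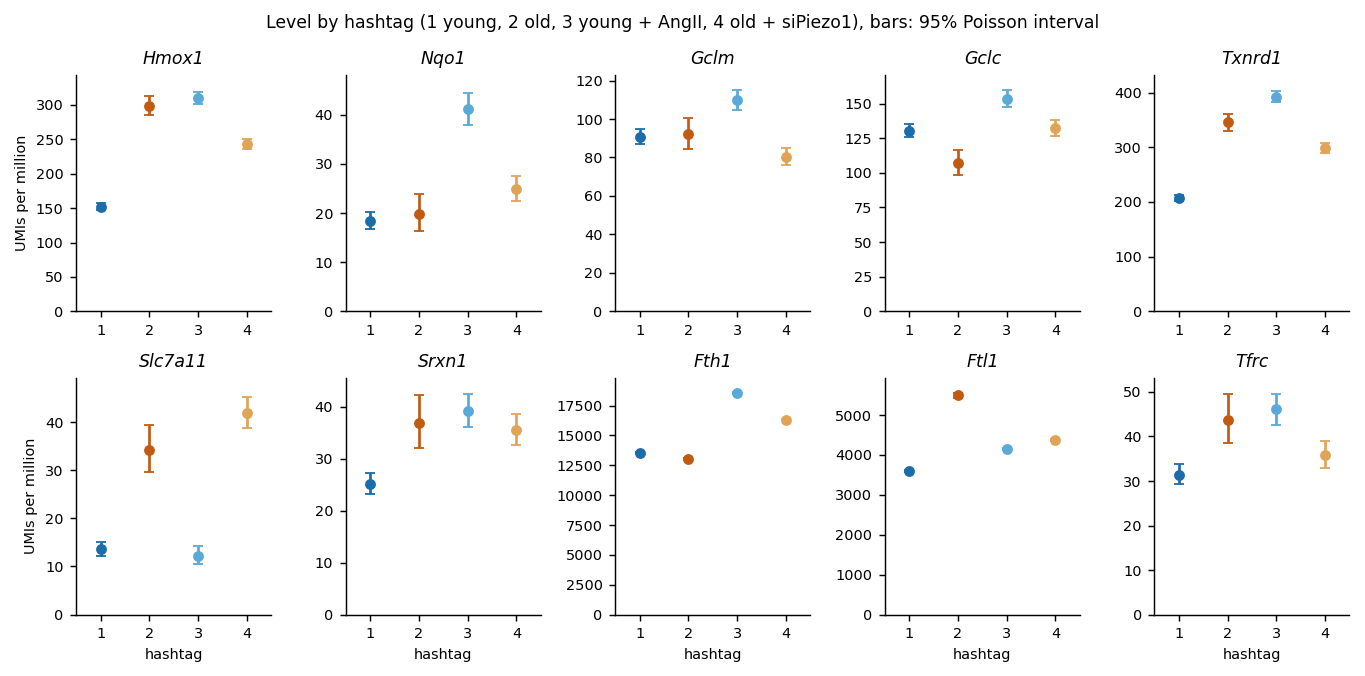
Level of each gene in UMIs per 1000000 (CPM) (vertical axis, from 0) by hashtag (horizontal axis: 1 young, 2 old, 3 young + AngII, 4 old + siPiezo1), with 95% Poisson intervals of the summed count. Slc7a11 is near 13 in both young cultures and above 34 in both old cultures, while Nqo1 stands out only in the AngII culture, at 41.1.

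Hmox1, which encodes the inducible haem oxygenase that breaks haem into biliverdin, carbon monoxide and free iron, was lowest in young cells. Its level was 152 CPM in young, 299 in old, 310 in young + AngII and 243 in old + siPiezo1 cells. The old and AngII-treated cultures could not be separated by their intervals (285 to 314 and 301 to 319), and the other neighbours in this order did not overlap. Old cells were 1.96-fold above young cells (1.85 to 2.08), a ratio higher than that of 95.02% of the genes tested. AngII-treated cells were 2.04-fold above young cells (1.95 to 2.13), and cells labelled siPiezo1 stood at 0.813 of old cells (0.767 to 0.861), or at 1.08 (0.955 to 1.23) when only cells with Y-linked UMIs and none of Xist were kept. In cells thinned to 5000 UMIs each, so that depth was equal, the share of cells with an Hmox1 UMI was 43.7% (young), 58.0% (old), 63.1% (young + AngII) and 57.0% (old + siPiezo1). The higher level was thus accompanied by a larger share of positive cells. Without thinning these shares were 52.7%, 76.9%, 77.5% and 73.6%, with median depths of 6816, 10663, 9454 and 9792 UMIs.

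Txnrd1, the cytosolic thioredoxin reductase that keeps thioredoxin reduced with NADPH, had the same order as Hmox1. It measured 207 CPM in young, 346 in old, 392 in young + AngII and 299 in old + siPiezo1 cells, and no pair of intervals overlapped. The ratio was 1.67 (1.58 to 1.76) for old over young, 1.89 (1.82 to 1.96) for AngII-treated over young and 0.865 (0.820 to 0.912) for siPiezo1-labelled over old cells. Its median count per thinned cell was 1 UMI in 3 cultures and 2 in AngII-treated cells, where 81.0% of cells had a UMI against 59.0% of young cells.

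Srxn1 encodes sulfiredoxin, which repairs over-oxidised peroxiredoxins. Its level was 25.1 CPM in young, 36.9 in old, 39.2 in young + AngII and 35.5 in old + siPiezo1 cells, so the young culture lay below the other 3, whose intervals overlapped. Srxn1 passed the fold of 1.5 in AngII-treated cells (1.56, 1.39 to 1.75) and lay just under it in old cells (1.47, 1.25 to 1.72). Nqo1, a quinone reductase often used as a readout of NRF2 activity, measured 18.5, 19.9, 41.1 and 24.9 CPM in the same order. Only the AngII-treated culture stood apart from the other 3 intervals. Its Nqo1 level was 2.22 times that of young cells (1.97 to 2.52), higher than the ratio of 98.3% of genes, whereas old over young gave 1.08 (0.866 to 1.33). Nqo1 was seen in 17.7% of thinned AngII-treated cells and in 8.59% to 10.2% of cells of the other cultures.

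Gclc and Gclm, the subunits of glutamate-cysteine ligase, the rate-limiting enzyme of glutathione synthesis, stayed within the fold of 1.5 in all 3 comparisons. Gclc, the catalytic subunit, measured 131 CPM in young, 107 in old, 153 in young + AngII and 132 in old + siPiezo1 cells. It was the member with the lowest ratio of old over young, 0.822 (0.752 to 0.897), and it was 1.18-fold higher with AngII (1.11 to 1.24) and 1.23-fold higher in siPiezo1-labelled than in old cells (1.13 to 1.35). Gclm, the modifier subunit, measured 90.8, 92.0, 110 and 80.4 CPM. The old over young ratio of Gclm was 1.01 (0.918 to 1.12), that of AngII-treated over young was 1.21 (1.13 to 1.29) and that of siPiezo1-labelled over old was 0.874 (0.789 to 0.970).

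Slc7a11, the cystine/glutamate antiporter subunit that supplies cystine for glutathione, separated the young from the old cultures. Young cells held 13.6 CPM, old cells 34.3, young cells given AngII 12.3 and old cells labelled siPiezo1 41.9. The intervals of the young cultures overlapped, those of the old cultures did so narrowly (29.6 to 39.5 and 38.8 to 45.2), and the pairs were apart. The ratio of siPiezo1-labelled over old cells was 1.22 (1.04 to 1.45). It became 1.77 (1.39 to 2.27) with hashtag cutoffs raised 1.5 times, 1.83 (1.39 to 2.46) where the top hashtag had to be 3 times the next, and 0.742 (0.501 to 1.11) in cells with Y-linked UMIs but none of Xist, so the old cultures are not shown to be alike. Old over young gave 2.52 (2.10 to 3.02), the largest ratio among the 10 genes in any of the 3 comparisons, and AngII-treated over young gave 0.901 (0.748 to 1.08). The share of thinned cells with a UMI of Slc7a11 was 4.71% and 4.40% in the young cultures and 13.4% and 15.97% in the old ones. The sex-linked transcripts divided the cultures the same way. Cells with Y-linked UMIs and none of Xist were 54.1% of young, 19.5% of old, 55.5% of AngII-treated and 13.8% of siPiezo1-labelled cells. They were thus a minority of both old cultures, and sex composition cannot be told apart from age. With only the cells kept that had UMIs of Y-linked genes but none of Xist (1700 young and 97 old cells), old over young was 3.63 for Slc7a11 (2.54 to 5.11), 2.17 for Hmox1 (1.93 to 2.43), 1.81 for Txnrd1 (1.63 to 2.01) and 1.58 for Ftl1 (1.54 to 1.62). In the same cells, AngII-treated over young was 2.58 for Nqo1 (2.18 to 3.05) and 2.13 for Hmox1 (2.004 to 2.25). Hashtag cutoffs raised 1.5 times instead gave lower ratios than the main rule. Old over young was then 1.78 for Slc7a11 (1.38 to 2.28), 1.73 for Hmox1 (1.61 to 1.86), 1.48 for Txnrd1 (1.38 to 1.59) and 1.52 for Ftl1 (1.49 to 1.54). AngII-treated over young was 2.12 for Nqo1 (1.87 to 2.42) and 1.86 for Hmox1 (1.78 to 1.95).

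**Figure D2:**
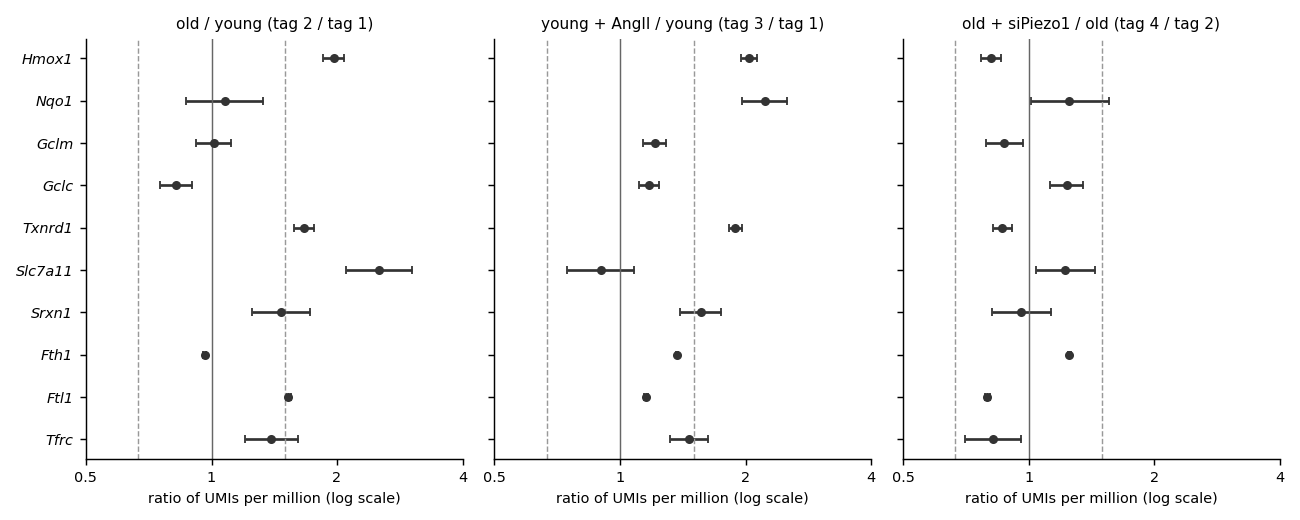
Ratio of CPM (horizontal log axis) for each gene in 3 comparisons, with exact 95% binomial intervals of the counts. The solid line marks 1 and dashed lines mark a fold of 1.5 in either direction. In the panel of siPiezo1-labelled over old cells every point lies between the dashed lines, and Nqo1 (2.22) and Slc7a11 (2.52) lead the AngII and age panels.

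The sequences upstream of these genes are shown because NRF2 acts at promoters. RefSeq promoter sequences (GRCm38.p6) were given for 8 of the 10 genes, all but Hmox1 and Gclc. In the 250 bases before each start site, the antioxidant response element core TGACNNNGC, on either strand, occurred in 10.2% of all 32851 promoters and, among the members, before Gclm and before 1 of 3 Txnrd1 starts. TGAGTCA, the heptamer bound by AP-1 proteins, occurred in 4.46% of promoters and was present at 2 places before Srxn1. The match nearer the Srxn1 start is followed by GC, so it differs from the core TGACNNNGC only in G for C after TGA. The search for the core did not allow G there, so this search does not show that Srxn1 lacks such an element. No match of one motif overlapped the other in these genes. Capitals mark the matches, written 5′ to 3′ along the plus strand, which is the gene strand, and the 2 core matches lie on the opposite strand. The windows are Gclm at chr3:122245411-122245443, Txnrd1 at chr10:82859102-82859134 and Srxn1 at chr2:152105410-152105497.
Gclm: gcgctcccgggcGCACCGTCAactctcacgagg
Txnrd1: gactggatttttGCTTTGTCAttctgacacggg
Srxn1: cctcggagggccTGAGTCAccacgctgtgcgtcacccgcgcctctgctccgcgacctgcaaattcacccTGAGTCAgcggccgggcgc
The promoter windows of Nqo1, Slc7a11, Fth1, Ftl1 and Tfrc held neither string. A match is a string of letters and not evidence of binding, and elements farther from the start were not searched.

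Ferritin RNA was among the most abundant in these cells, and its 2 chains differed between groups in different ways. Fth1, whose product oxidises iron for storage, was the most abundant transcript of AngII-treated cells, ranked 2 in young and siPiezo1-labelled cells and ranked 3 in old cells. Fth1 measured 13540 CPM in young, 13040 in old, 18540 in young + AngII and 16330 in old + siPiezo1 cells. Ftl1, which favours formation of the iron core, measured 3595, 5491, 4148 and 4373 CPM. The Poisson intervals of the 4 cultures did not overlap for either gene, but they treat each UMI as independent. Across thinned cells the variance was 32.4 to 54.7 times the mean for Fth1 and 4.65 to 8.74 times for Ftl1. The intervals of both genes are therefore too narrow to cover the spread between cells. Fth1 in old over young cells was 0.963 (0.955 to 0.971), while Ftl1 was 1.53 (1.51 to 1.55). That Fth1 ratio passed to the other side of 1 under both alternative hashtag rules. It was 1.07 (1.06 to 1.08) with cutoffs raised 1.5 times and 1.047 (1.035 to 1.06) where the top hashtag had to be 3 times the next. Raised cutoffs changed both groups, from 3144 to 3206 young cells and from 497 to 260 old cells. The order of young and old cells in Fth1 thus depends on the cells kept. With AngII, Fth1 was 1.37-fold higher (1.36 to 1.38) and Ftl1 1.15-fold higher (1.14 to 1.17). In siPiezo1-labelled over old cells Fth1 was 1.25 (1.24 to 1.26) and Ftl1 0.796 (0.786 to 0.807), so the chains lay on opposite sides of 1 there.

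These opposite differences appeared in the ratio of heavy to light chain molecules, which needs no length correction because 3′ counting gives 1 UMI per captured molecule. The ratio of Fth1 to Ftl1 UMIs was 3.77 in young, 2.38 in old, 4.47 in young + AngII and 3.73 in old + siPiezo1 cells. Old cells were lowest, and young and siPiezo1-labelled cells were close to each other (3.74 to 3.80 and 3.70 to 3.77). Together the chains took 1.71%, 1.85%, 2.27% and 2.07% of all UMIs. Ftl1 counts carry an uncertainty of assignment: the copy Ftl1-ps1 (chr13:74399694-74407346) is identical to the Ftl1 transcript at 99.6% of 910 aligned bases, so reads of the pair can be lost or exchanged. Ftl1-ps1 counted 26.8, 41.2, 31.7 and 29.5 CPM, far below Ftl1.

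Tfrc, the transferrin receptor, was the least abundant iron gene of the set. It measured 31.4 CPM in young, 43.8 in old, 46.1 in young + AngII and 35.9 in old + siPiezo1 cells. Neighbours in the order young, siPiezo1-labelled, old and AngII-treated had overlapping intervals. Young cells were apart from old and from AngII-treated cells, and siPiezo1-labelled cells were apart from AngII-treated cells. The ratio was 1.39 (1.2 to 1.61) for old over young, 1.47 (1.32 to 1.63) for AngII-treated over young and 0.820 (0.705 to 0.957) for siPiezo1-labelled over old cells.

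Fth1, Ftl1 and Tfrc, the iron genes of the set, are known to carry iron responsive elements, so their presence here describes the sequences and is not a finding. The GENCODE vM21 transcripts were searched for the iron responsive element hairpin, a bulged C, 5 paired bases and a CAGTGN loop (CAGTG followed by a base other than G, G to T pairs allowed). Of 21901 protein-coding genes, 1.01% had such a hairpin in any protein-coding transcript, whereas for each member only 1 reference transcript was searched. Among the members it occurred in the 5′ UTR of Fth1 and of Ftl1 and at 4 places in the 3′ UTR of Tfrc, and in none of the other 7 reference transcripts. The sequences are printed 5′ to 3′ as DNA, with the loop in capitals.
Fth1, bases 93 to 109: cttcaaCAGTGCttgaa
Ftl1, bases 84 to 100: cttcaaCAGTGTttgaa
Tfrc, bases 3321 to 3337: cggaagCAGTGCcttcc
Tfrc, bases 3700 to 3716: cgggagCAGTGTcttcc
Tfrc, bases 3765 to 3781: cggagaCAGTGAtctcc
Tfrc, bases 3812 to 3828: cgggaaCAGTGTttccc
The 2 ferritin hairpins have the same stem and differ in the last base of the loop. RNA counts do not report ferritin translation, which these hairpins are known to control.

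The genes lie at Hmox1 chr8:75093621-75100589, Nqo1 chr8:107388225-107403206, Gclm chr3:122245557-122270732, Gclc chr9:77754535-77794485 and Txnrd1 chr10:82833951-82897712. The others lie at Slc7a11 chr3:49892526-50443614, Srxn1 chr2:152105516-152111376, Fth1 chr19:9980598-9985098, Ftl1 chr7:45457944-45459884 and Tfrc chr16:32608920-32632794. These are GENCODE vM21 coordinates on GRCm38, and apart from Hmox1 and Nqo1 on one chromosome and Gclm and Slc7a11 on another, no members share one.

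Cells of 1 culture differed widely in Fth1. In thinned cells the median was 56 UMIs of 5000 for young, 48 for old, 75 for AngII-treated and 69 for siPiezo1-labelled cells, and the highest single cells held 586, 473, 502 and 560. The variance of Fth1 was 32.4 to 54.7 times its mean, where independent counting would give 1, and the top 10% of cells held 26.0% to 32.1% of all Fth1 UMIs. By median and by summed level alike, AngII-treated cells were highest and old cells lowest, although by summed level old cells were above young cells under the alternative hashtag rules. Ftl1 was more even, with medians of 16, 24, 18 and 19 UMIs and a variance 4.65 to 8.74 times the mean. Hmox1 had a variance 2.24 to 3.65 times its mean with up to 25 UMIs in a cell. In no culture was the ratio above 2.23 for Gclc or above 1.92 for the remaining 6 genes. Where cells differ, this ratio grows with the level of a gene, so it cannot rank abundant against sparse genes by their spread. The top 10% of cells held 41.2% to 46.6% of Hmox1 UMIs, more than for Fth1, but sparse counts raise such a share by themselves. At this depth most cells of each culture had no UMI of Nqo1, Gclm, Gclc, Slc7a11, Srxn1 or Tfrc. The same held for Hmox1 in young cells (56.3%). A count of 0 cannot be read as absence of the transcript.

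**Figure D3:**
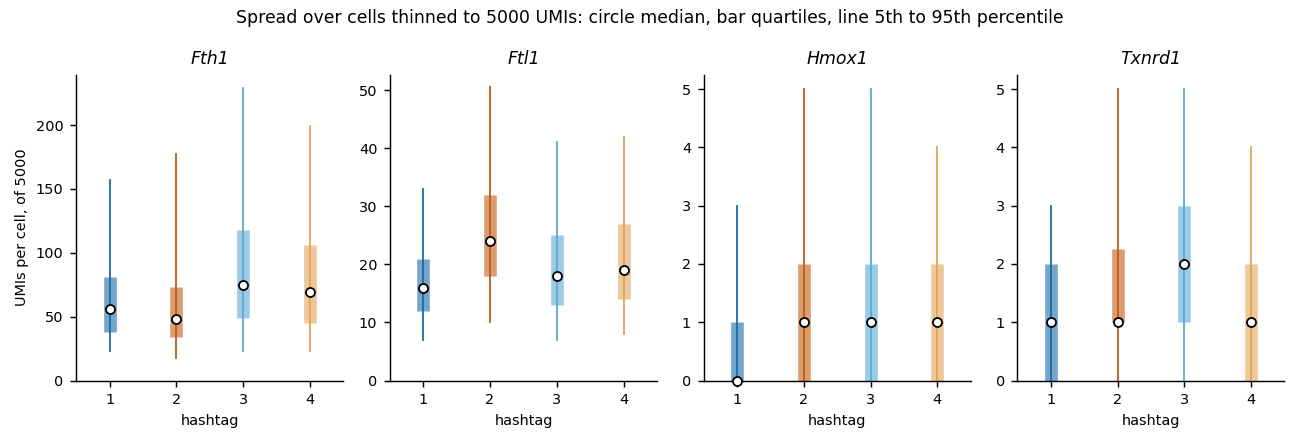
UMIs per cell of 4 genes in cells thinned to 5000 UMIs (vertical axis, from 0) by hashtag (1 young, 2 old, 3 young + AngII, 4 old + siPiezo1). Circles are medians, bars span the quartiles and lines the 5th to 95th percentiles; Ftl1 is highest in old cells (median 24) and Fth1 in AngII-treated cells (median 75).

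Across cells of a culture, the measured correlations between members were low, and highest for the ferritin pair, whose 2 genes were the most abundant of the set. The correlation of log counts between Fth1 and Ftl1 was 0.320, 0.341, 0.381 and 0.165 over the 2397, 476, 1364 and 1415 thinned cells of hashtags 1 to 4, all cells sharing 1 library and 1 depth. Hmox1 and Ftl1 correlated at 0.170 to 0.232, and no other pair had a mean above 0.120. Counting error in sparse counts lowers a correlation, so the values of those other pairs show neither a relation nor its absence. Among 6041 genes seen in at least 10% of thinned cells, the gene most like Fth1 was Mt1 (mean correlation 0.403 over the 4 cultures, 0.324 to 0.460), followed by Ftl1 (0.302) and Mt2 (0.300). Mt1 and Mt2 encode metallothioneins, small proteins that bind zinc and copper. Ftl1 was most like Fth1, then Serf2 (0.272) and Prdx1 (0.2703), a peroxiredoxin. Mt1 measured 3479, 1426, 4566 and 1861 CPM. In old over young cells its ratio was 0.410 (0.401 to 0.420), against 0.963 for Fth1, while with AngII it was 1.31 (1.30 to 1.33), against 1.37, and in siPiezo1-labelled over old cells 1.30 (1.27 to 1.34), against 1.25. Mt2 was 0.292 (0.279 to 0.305), 1.13 (1.11 to 1.15) and 1.56 (1.49 to 1.64). For the other 8 members the most similar gene had a mean correlation between 0.0864 and 0.201, led by Ftl1 for Hmox1, Gclc for Gclm, Mdm2 for Gclc, Nap1l1 for Txnrd1, Odc1 for Slc7a11, Ftl1 for Srxn1, Esd for Nqo1 and Pclaf for Tfrc.

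Ferritin and haem oxygenase RNA were lower, and Tfrc RNA higher, in dividing cells. Thinned cells with at least 3 UMIs of 8 dividing cell markers (852, 140, 390 and 448 cells in the order young, old, AngII-treated, siPiezo1-labelled) were set against cells with none (980, 234, 603 and 650). Cells with 1 or 2 such UMIs, 565, 102, 371 and 317 of them, were left out. Tfrc was 1.78, 1.41, 1.70 and 1.90 times as high in dividing as in non-dividing cells, with intervals above 1 in 3 cultures and 0.862 to 2.31 in old cells. Fth1 stood at 0.801, 0.714, 0.688 and 0.742, Ftl1 at 0.865, 0.805, 0.840 and 0.791, and Hmox1 at 0.772, 0.654, 0.707 and 0.649, and none of these intervals reached 1. Gclc was 1.42 and 1.69 in young and old cells and 0.806 in AngII-treated cells, so its direction differed among cultures. The summed dividing markers were lower in AngII-treated cells (484 CPM) than in young (746), old (717) and siPiezo1-labelled cells (792), and the part of this in the Fth1 and Hmox1 levels was not tested.

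A split of thinned cells at the culture's median of VSMC marker UMIs divided the members again. Cells above the median had less Fth1 in each culture (0.751, 0.618, 0.811 and 0.777 of the cells at or below it) and more Hmox1 (1.21, 1.33, 1.17 and 1.17). Slc7a11 stood at 0.420 in old cells (0.252 to 0.679) and 0.540 in siPiezo1-labelled cells (0.420 to 0.692), and Gclc was below 1 in all 4 cultures, with an interval reaching past 1 in old cells. Between 197 and 1394 cells per culture lay near this cut, so the 2 sides are ranges of 1 population. The summed VSMC markers themselves were highest in old cells (2142 CPM) and lowest in siPiezo1-labelled cells (1022 CPM), and their part in the differences between cultures was not tested. Cells above the median mitochondrial share had less Fth1 (0.805, 0.799, 0.785 and 0.926) and less Ftl1 (0.897, 0.823, 0.902 and 0.845). AngII-treated cells, with the most Fth1, had the lowest mitochondrial share, and its part in that difference was not tested.

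**Figure D4:**
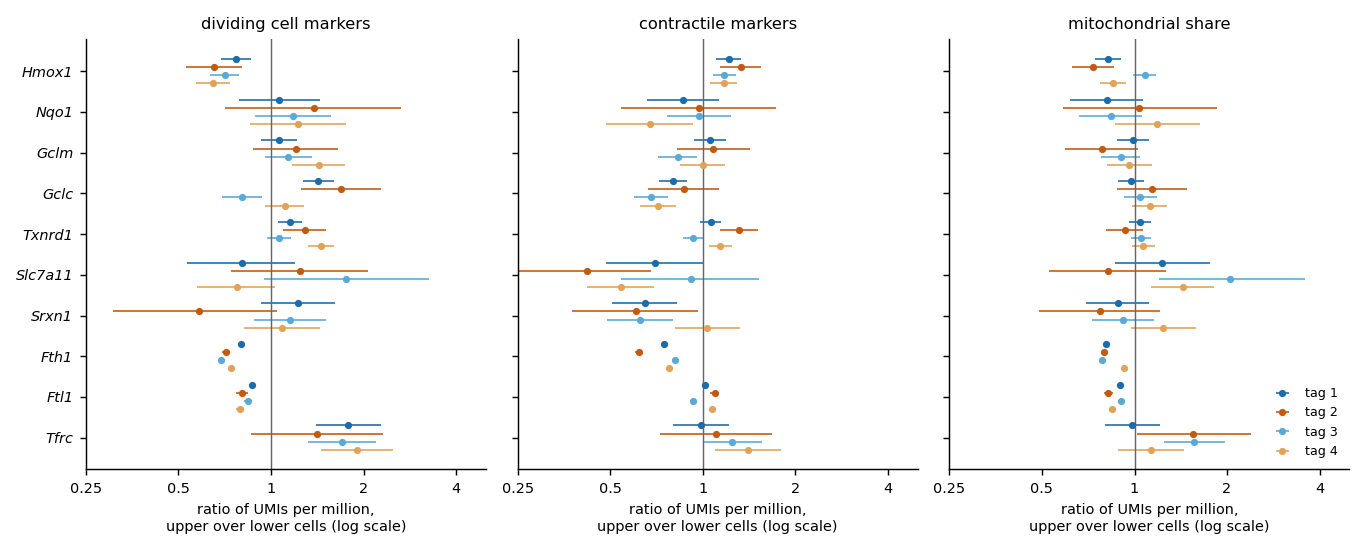
Ratio of CPM (horizontal log axis) of each gene in cells of 1 culture split by dividing cell markers, by VSMC (contractile) markers and by mitochondrial share, with exact 95% intervals and 1 colour per hashtag (1 young, 2 old, 3 young + AngII, 4 old + siPiezo1). Fth1 lies below 1 in all panels, from 0.618 to 0.926, and Tfrc is above 1 among dividing cells, from 1.41 to 1.90.

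The regulators of the pathway were read from a list of 11 genes. Nfe2l2 measured 203 CPM in young, 256 in old, 170 in young + AngII and 284 in old + siPiezo1 cells, and Keap1 30.8, 27.8, 24.2 and 31.7. Nfe2l2 was lowest in the AngII-treated culture, where Nqo1 and Txnrd1 were highest, at a ratio of 0.838 to young cells (0.798 to 0.879). NRF2 activity is set mainly by protein stability, which was not measured. Of 11 regulators, 1 passed the fold of 1.5 in old over young cells (Mafg, a small MAF partner of NRF2, 1.55) and 1 with AngII (Maff, another small MAF, 1.93), while none passed in siPiezo1-labelled cells. Over all genes, 11.7% were higher and 13.5% lower with age, and 8.64% and 11.1% with AngII. For siPiezo1-labelled over old cells these shares were 5.35% and 3.61%. Cul3 (0.828 and 0.934 in the age and AngII comparisons), Bach1, the repressor of Hmox1 (1.01 and 0.855), Mafk (0.707 and 0.937) and Nfe2l1 (1.10 and 0.998) stayed inside it. So did the iron regulators Ireb2 (1.10 and 1.04), Aco1 (0.971 and 1.35) and Fbxl5 (1.34 and 0.963).

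Other known NRF2 targets, 23 of 25 of which had at least 100 UMIs, did not share the members' median. In old over young cells 0 were higher and 1 was lower by 1.5-fold (Ephx1, an epoxide hydrolase, 0.433), with a median ratio of 1.01. Of all genes, 11.7% were higher and 13.5% lower. With AngII, 4 were higher, the glutathione synthetase Gss (1.91), the glutathione transferase Gstm1 (1.56), the exporter Abcc4 (2.10) and Trim16 (1.76), and 2 were lower, the autophagy receptor Sqstm1 (0.623) and Ephx1 (0.471). The median there was 1.03, and of all genes 8.64% were higher and 11.1% lower. No gene of this list passed the fold in siPiezo1-labelled over old cells, against 5.35% of all genes higher and 3.61% lower.

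Of 21 iron genes outside the set, 17 had at least 100 UMIs, and 4 of these had a ratio above 1 in old over young cells. There, 5 were lower than in young cells by 1.5-fold, against 13.5% of all genes lower and 11.7% higher. They were Steap3 (0.471), a ferrireductase, Hfe (0.182), Heph (0.609), a ferroxidase, and the metal importers Slc39a14 (0.489) and Slc39a8 (0.369). In old cells Steap3, Hfe, Heph and Slc39a8 had only 11, 4, 19 and 19 UMIs. Their intervals were 0.228 to 0.879, 0.0486 to 0.482, 0.355 to 0.988 and 0.218 to 0.589. The 1 gene higher by that fold was Trf, transferrin, the ligand of Tfrc, which measured 10.2 CPM in young, 45.0 in old, 13.1 in AngII-treated and 47.3 in siPiezo1-labelled cells, a ratio of 4.39 (3.67 to 5.26) for old over young. Like Slc7a11, Trf was thus high in both old cultures. With AngII, 5 were lower, Steap3 (0.656), Hfe (0.306), Cp (0.540), Slc39a14 (0.587) and Lcn2 (0.579), and none was higher. Of all genes, 11.1% were lower and 8.64% higher there. Steap3 and Hfe had 41 and 18 UMIs in AngII-treated cells, with intervals of 0.4445 to 0.951 and 0.174 to 0.510. In siPiezo1-labelled over old cells, 2 were higher and none lower: Cp, the ferroxidase ceruloplasmin (2.15, 2.04 to 2.27), and Lcn2, which binds iron-carrying siderophores (2.13, 2.06 to 2.20). The shares of all genes were 5.35% higher and 3.61% lower. The median ratio of the list was 0.789, 0.959 and 1.08 in the 3 comparisons.

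Free RNA in the suspension carried these transcripts as well. In 1299325 barcodes of 1 to 100 UMIs, too few for a cell, the levels were 303 CPM for Hmox1, 14560 for Fth1, 5277 for Ftl1, 234 for Txnrd1, 41.03 for Tfrc, 35.3 for Srxn1, 32.4 for Nqo1 and 18.6 for Slc7a11. Several cultures lay below these values, for abundant and sparse genes alike. They were young, old and siPiezo1-labelled cells for Hmox1 (152, 299 and 243) and for Nqo1, young and old cells for Fth1 (13540 and 13040), and young, AngII-treated and siPiezo1-labelled cells for Ftl1 (3595, 4148 and 4373). Young cells for Txnrd1 and Srxn1, young and siPiezo1-labelled cells for Tfrc, and both young cultures for Slc7a11 were also below. Some intervals overlapped. For Hmox1, free RNA (280 to 328) overlapped old (285 to 314) and AngII-treated cells (301 to 319). For Nqo1, free RNA (25.2 to 41.1) overlapped siPiezo1-labelled (22.5 to 27.5) and AngII-treated cells (37.9 to 44.5). Free RNA also overlapped the cultures named here for Tfrc (32.8 to 50.7) and for Slc7a11 (13.2 to 25.4). Gclc and Gclm, at 91.6 (79.1 to 105.5) and 66.8 CPM (56.2 to 78.8) in free RNA, were higher in each culture. The interval of Gclc reached that of old cells (98.8 to 116), and that of Gclm reached siPiezo1-labelled cells (76.1 to 84.9). No cell type that should lack the genes was present to set a background share of positive cells, and the part of free RNA in these levels was not tested.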

How the data were processed

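The deposited matrix held raw UMI counts per gene and barcode for 1 pooled 10x library and 4 hashtag antibodies, made by the authors with Cell Ranger 4 per the file headers. The genome build was not given in the sources used here. Counts were used as deposited, with no normalization by the authors. Barcodes were kept from 2218 UMIs (set by dividing by 10 the UMI count at percentile 99 among the 10000 deepest) and 200 genes upward. A cell was given a hashtag when only that one exceeded its cutoff (36, 52, 61 and 41 UMIs). Cells with more than 1 hashtag (1068) were left out. Scrublet (scanpy 1.11.5, expected rate 0.1) called 3058 cells doublets, which were kept and removed in an alternative.

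Counts were summed per hashtag and given as UMIs per 1000000 UMIs (CPM) with exact Poisson intervals. Ratios had exact binomial intervals of the 2 counts (SciPy 1.17.1), and shares of cells had Clopper-Pearson intervals. Simulated data with 12533 genes gave intervals holding the true ratio for 95.6% (old over young, AngII over young) and 95.8% (siPiezo1-labelled over old) of genes. The simulated counts were Poisson draws, as the intervals assume. This checked the calculation only and says nothing on the spread between cells or cultures. A gene was called higher or lower past a fold of 1.5. Cells of at least 5000 UMIs (5652 of 6670) were thinned to 5000 for shares, spread, correlations and splits.

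The 10 members, the lists (regulators, other NRF2 targets, other redox enzymes, other iron genes, ATF4 and cystine genes, cell type markers) and the hashtag cutoffs were chosen with earlier results of these data known. Named genes were the members, all regulators, each listed gene past the fold with at least 100 UMIs, and the 3 genes most like each member; of the last, only some are named. Promoters came from RefSeq (GRCm38.p6), and transcripts and coordinates from GENCODE vM21. Transcripts of Ftl1 and Ftl1-ps1 were aligned with Biopython 1.88. Alternatives changed the hashtag rule, depth, doublets, mitochondrial limit, sex-linked transcripts, denominator, fold and minimum count.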

Additional observations from a re-analysis of the deposited data

Results flagged for a closer look

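Cells without a hashtag over its cutoff, which enter no comparison, held Nqo1 at 28.8 CPM (27.2 to 30.5), above the level in the 2 cultures used as controls, young (18.5, 16.8 to 20.3) and old cells (19.9, 16.4 to 24.0). This level was below that of AngII-treated cells (41.1, 37.9 to 44.5). Its interval met those of siPiezo1-labelled cells (24.9, 22.5 to 27.5) and of free RNA (32.4, 25.2 to 41.1), so it lay within the range of the 4 cultures. The group of the cells without a hashtag is unknown, and 12.7% of them had a UMI of Nqo1 after thinning, against 8.59% of young and 9.87% of old cells.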

How the results depend on the processing

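Of 30 ratios under 9 alternatives each, 21 stayed on the same side of 1 throughout. By a stricter measure, 198 of the alternative values lay inside the interval of the main ratio and 72 lay outside it. The mitochondrial limit kept all young, old and AngII-treated cells and 1524 of 1529 siPiezo1-labelled cells, so it could hardly move a ratio. With a fold of 2, the members higher in old over young cells numbered 1 (Slc7a11, against 4.73% of all genes), and with AngII 2 (Hmox1 and Nqo1, against 2.5%). In siPiezo1-labelled over old cells, 2 members (Nqo1 and Slc7a11) were higher by 1.5-fold with hashtag cutoffs raised 1.5 times (7.45% of all genes), and likewise 2 where the top hashtag had to be 3 times the next (10.7%), and 1 (Nqo1) was lower when the analysis kept cells having Y-linked UMIs but none of Xist (11.6%). The cause was not tested, though these cells were few: 260 and 179 old cells under the 2 hashtag rules, and 97 old cells in the last. The widest ranges were 1.78 to 3.63 for Slc7a11 in old over young cells, 0.742 to 1.83 for Slc7a11 and 0.628 to 1.63 for Nqo1 in siPiezo1-labelled over old cells. Calls near the fold changed. With raised hashtag cutoffs Txnrd1 in old over young cells (1.48) and Srxn1 with AngII (1.46) no longer passed it. Nor did Ftl1 in old over young cells without the deepest cells (1.495). Srxn1 passed it in old over young cells without Scrublet doublets (1.68), without the deepest cells (1.65) and without the top and mitochondrial genes in the denominator (1.502). Tfrc passed it with AngII without Scrublet doublets (1.57), without the deepest cells (1.515) and in thinned cells (1.55). In old over young cells Tfrc passed it among cells with Y-linked UMIs but none of Xist (1.59). With a minimum of 20 UMIs, 10.3% of all genes were higher and 8.11% lower by 1.5-fold in siPiezo1-labelled over old cells, against 5.35% and 3.61% at 100 UMIs. No paired analysis was possible because each group had 1 culture. Depth limits Nqo1, Slc7a11, Srxn1 and Tfrc most, and old cells (497) gave the widest intervals.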

Other observations

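Other redox enzymes, 18 of 18 of which had at least 100 UMIs, had a ratio above 1 for 7, 6 and 7 genes in the age, AngII and siPiezo1 comparisons. In old over young cells the glutaredoxin Glrx was higher (2.21, 2.01 to 2.42), and the secreted glutathione peroxidase Gpx3 (0.520) and the endoplasmic reticulum peroxiredoxin Prdx4 (0.462) were lower by 1.5-fold. With AngII, the mitochondrial thioredoxin Txn2 was higher (1.51), and Sod3 (0.578), Gpx1 (0.619), Prdx4 (0.603) and the selenoprotein Selenow (0.443) were lower. None passed the fold in siPiezo1-labelled over old cells, and the median ratios were 0.944, 0.860 and 0.968. Over all genes, 11.7% were higher and 13.5% lower with age, and 8.64% and 11.1% with AngII. For siPiezo1-labelled over old cells these shares were 5.35% and 3.61%.

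Among 14 genes of the ATF4 stress response and cystine use, a factor known to drive Slc7a11, Ddit3, the stress factor CHOP, measured 190 CPM in young cells and 37.3, 43.3 and 33.5 in old, AngII-treated and siPiezo1-labelled cells. Its ratio was 0.196 (0.170 to 0.225) for old over young and 0.228 (0.209 to 0.247) with AngII. Acsl4, which makes polyunsaturated acyl-CoA, was higher in old cells (1.74), Chac1, which degrades glutathione, was lower with AngII (0.507), and none passed the fold in siPiezo1-labelled over old cells. Atf4 itself stayed within the fold (107.5, 90.4, 84.1 and 93.5 CPM), and so did Slc3a2, the partner chain of Slc7a11 (59.1, 56.7, 57.3 and 50.4). The median ratios of this list were 0.877, 0.894 and 0.893. The shares of all genes past the fold were 11.7% higher and 13.5% lower with age, and 8.64% and 11.1% with AngII. They were 5.35% and 3.61% for siPiezo1-labelled over old cells.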
